A study of Mus musculus with 4 samples.

Results

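The genes described here are the growth factor ligands and receptors of the mouse deep cerebellar nuclei, chosen by symbol from 9 families: the fibroblast growth factors (FGF), bone morphogenetic proteins (BMP), transforming growth factors beta (TGF-beta), platelet-derived growth factors (PDGF), vascular endothelial growth factors (VEGF), neuregulins with the ErbB receptors, neurotrophins with the Trk receptors, the GFR-alpha receptors and the KIT pair. Of 65 rows whose symbol matched, 55 had a count in each of the 4 libraries and were kept, out of 15632 genes in the tables. They hold 25 secreted ligands, 20 receptors, 4 intracellular members of the FGF family and 6 genes that carry a family's name but are neither its ligand nor its receptor. The 10 matching genes listed at 0 in at least 1 library were Gfra4, Bmp2, Bmp7, Tgfb1i1, Vegfd, Fgf22, Fgf7, Fgf2, Fgfr4 and Fgf18, and are not described further. Gdnf is not analysed here.

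The study profiled single nuclei, micro-dissected from slices of the deep cerebellar nuclei, in 2 Cre driver lines on the C57BL/6J background, each crossed to the Ai32 reporter, which expresses a channelrhodopsin fused to a yellow fluorescent protein wherever Cre has acted. The Ucn3-Cre line (Tg[Ucn3-cre]KF31Gsat/Mmucd) gave a female of 3 months, whose nuclei were extracted on an iodixanol gradient (Ucn3-Cre 1), and a male of 3 months, extracted through a sucrose cushion (Ucn3-Cre 2). The vGluT2-Cre line (Tg(Slc17a6-icre)1Oki, driven by the vesicular glutamate transporter gene of glutamatergic neurons) gave a male of 2 months (vGluT2-Cre 1) and a female of 2.5 months (vGluT2-Cre 2), both extracted through a sucrose cushion. The labels record no sorting of nuclei by Cre, so each library holds all cell types of the dissected tissue, and with 1 female and 1 male a line, line and age change together. Each library is 1 label entry, and p-values measure the spread between these libraries.

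The libraries held 4291 and 6587 nuclei from the Ucn3-Cre line and 5642 and 4974 from the vGluT2-Cre line, with total counts of 9096357 and 16219109, against 16412271 and 19125488. After removal of likely doublets, 20547 nuclei were grouped by clustering into classes named from marker genes, with every growth factor gene and its partner genes left out of both steps. The classes were oligodendrocytes (7427 nuclei), astrocytes (5028), microglia (769), endothelial cells (727), oligodendrocyte precursors (692), glutamatergic nuclear neurons (542, of which 470 stand in the authors' own table of vGluT2 nuclei), inhibitory nuclear or Golgi neurons (433), molecular layer interneurons (244), mural cells (183) and fibroblasts (80). A cluster of 660 nuclei carried inhibitory and interneuron markers in nearly equal measure and is called the Zfhx4 cluster after its leading gene. Another 3762 nuclei, led by Klk6, Piezo2 and Enpp6, carried mature oligodendrocyte markers at 105% of the oligodendrocyte level but stayed unnamed because a marker of newly formed oligodendrocytes was among their leading genes. Fibroblasts, with 17 nuclei in Ucn3-Cre 1, and the Klk6 and Piezo2 clusters are given as values with no test. Markers were also found outside their own class: summed mural markers reached 34.9% of their mural level in endothelial nuclei, oligodendrocyte markers reached 15.0% of their own level in endothelial nuclei and 4.20% in astrocytes, and inhibitory markers reached 16.7% of theirs in glutamatergic nuclei. The neuronal lists separate less: inhibitory markers reached 92.9% of their own level in molecular layer interneurons and 38.1% in astrocytes, and interneuron markers 107% of theirs in precursors and 65.0% in inhibitory neurons. How far the interneuron class is distinct from the inhibitory one was not tested.

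Growth factors of these families are mostly secreted proteins that bind receptor kinases on the surface of the same or a neighbouring cell. PDGF, FGF, VEGF, ErbB, Trk and KIT receptors are tyrosine kinases, whereas BMP and TGF-beta receptors are serine/threonine kinases that act through SMAD proteins. In brain, PDGF ligands are known for the growth of oligodendrocyte precursors and for the cover of capillaries by pericytes, neuregulins for myelination and synapses, and KIT ligand and its receptor for cerebellar interneurons. Levels below are in CPM, the count of a gene scaled to the summed counts of its class within a library, as mean ± SD over 4 libraries unless each library is given. They are nuclear RNA at gene level, which does not separate isoforms or reads of an overlapping antisense gene, and they are compared between classes for 1 gene, never between genes.

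**Figure D1:**
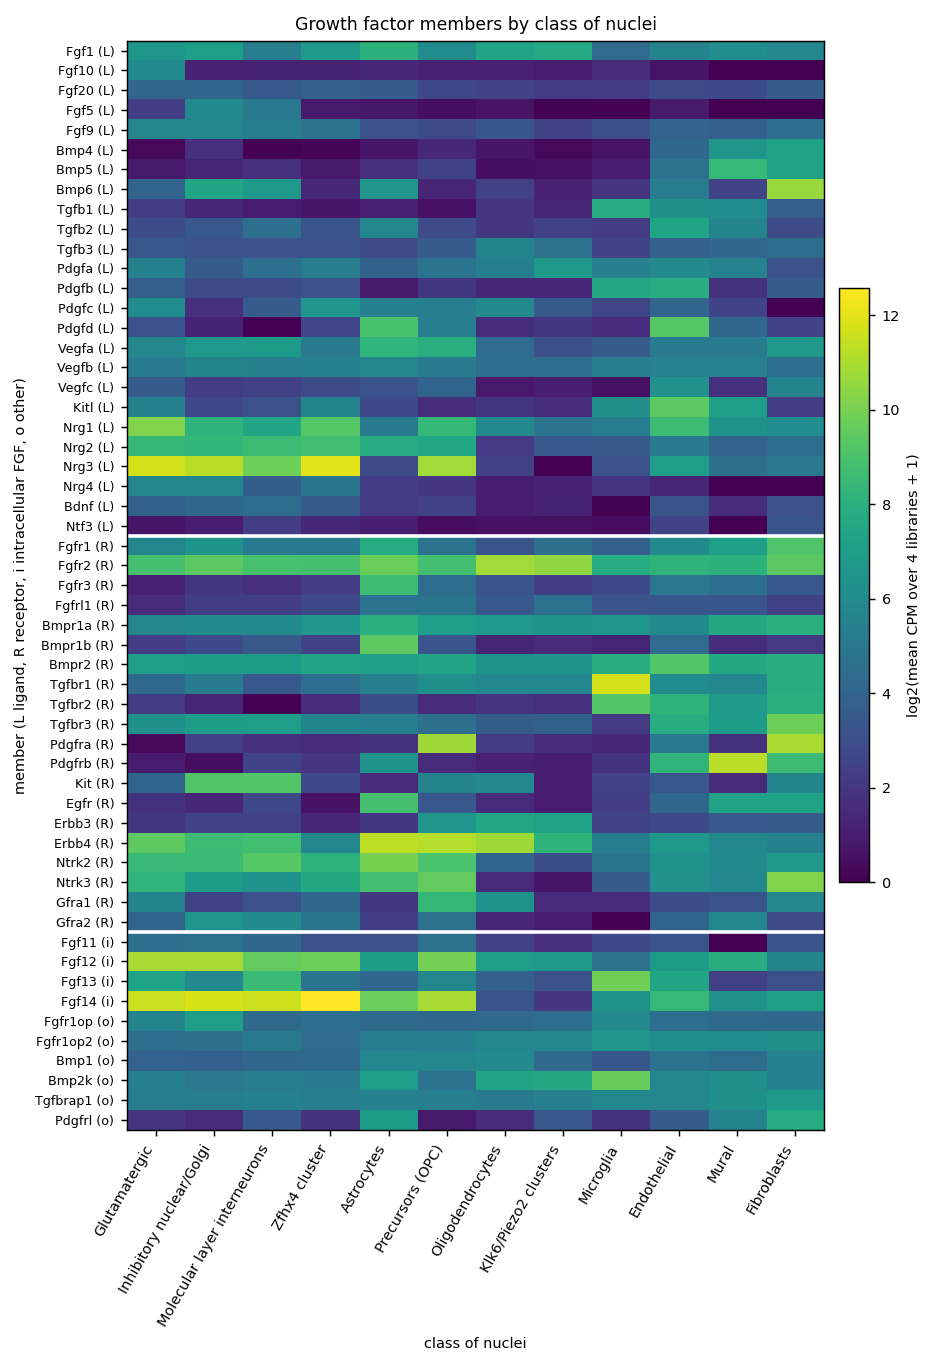
Level of each of the 55 genes (rows, ordered as ligands, receptors and others) in each of 12 groups of nuclei (columns), as the log2 of the mean CPM over 4 libraries plus 1. Among the tested classes, a receptor was most often highest in astrocytes (7 of 20) or precursors (4). A ligand was most often highest in endothelial cells (7 of 25) or glutamatergic neurons (5). Untested fibroblasts stood above the highest tested class for 5 receptors and 3 ligands.

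Among the 10 tested classes, receptors were most often highest in astrocytes, and ligands in endothelial cells and glutamatergic neurons. Of the 20 receptors, 7 were highest in astrocytes, 4 in oligodendrocyte precursors, 2 each in endothelial cells, microglia and oligodendrocytes, and 1 each in inhibitory neurons, molecular layer interneurons and mural cells. The 25 ligands were highest in endothelial cells (7), glutamatergic neurons (5), astrocytes (3), the Zfhx4 cluster (3), inhibitory neurons (2), mural cells (2), and 1 each in microglia, molecular layer interneurons and oligodendrocytes. Untested fibroblasts stood above the highest tested class for 5 receptors (Bmpr1a, Fgfr1, Ntrk3, Pdgfra and Tgfbr3) and 3 ligands (Bmp4, Bmp6 and Ntf3). Of the 7 endothelial ligands, Pdgfa and Vegfc were higher in a separate Acta2 and Tagln group with finer clusters, and Ntf3 was not tested. In 17 of 20 receptors, and in 11 of 25 ligands, the 4 libraries of the highest of the 10 tested classes lay above all 4 libraries of the next class. The difference between the 2 kinds was not tested. Neither this separation nor the highest class was counted over all genes, so no trait of the members is read from these counts. Fgf10 (glutamatergic neurons), Tgfb3 (oligodendrocytes) and Tgfbr1 (microglia) were each called higher in 1 class alone, 50 members in 2 or more classes, and Tgfbrap1 in none, while Ntf3 was too low to test. Of all genes, 9.85% (mural cells) to 36.5% (endothelial cells) were called higher in a class. How many of all genes were called in 2 or more classes was not counted.

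KIT ligand and its receptor stood in different cells. Kitl, which encodes KIT ligand (stem cell factor; chromosome 10, 100015630 to 100100416 on the plus strand of GRCm38), had 652 and 773 CPM in endothelial nuclei of the Ucn3-Cre libraries and 650 and 609 CPM in those of the vGluT2-Cre libraries. Its next class was mural cells at 131 ± 22.8 CPM, without overlap, and microglia had 74.0 ± 8.45 CPM. The log2 fold change of endothelial nuclei over the mean of the other 9 classes was 5.45 ± 0.11 (SE; edgeR quasi-likelihood test, adjusted p = 1.03e-45, higher in 4 of 4 libraries). Kit, the receptor (chromosome 5, 75574916 to 75656722, plus strand), had 409 and 550 CPM in molecular layer interneurons of the Ucn3-Cre libraries and 676 and 735 CPM in those of the vGluT2-Cre libraries. Inhibitory nuclear or Golgi neurons stood at the same level, with 557 and 524 CPM in the Ucn3-Cre libraries and 622 and 605 CPM in the vGluT2-Cre libraries. Both classes were higher than the other 9 (log2 fold changes 5.20 ± 0.19 and 5.23 ± 0.13, edgeR adjusted p = 1.19e-32 and 1.45e-41), and their libraries overlapped. Kit then dropped to 56.8 ± 6.64 CPM in oligodendrocytes, 15.6 CPM in glutamatergic neurons and 5.86 CPM in the Zfhx4 cluster.

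**Figure D2:**
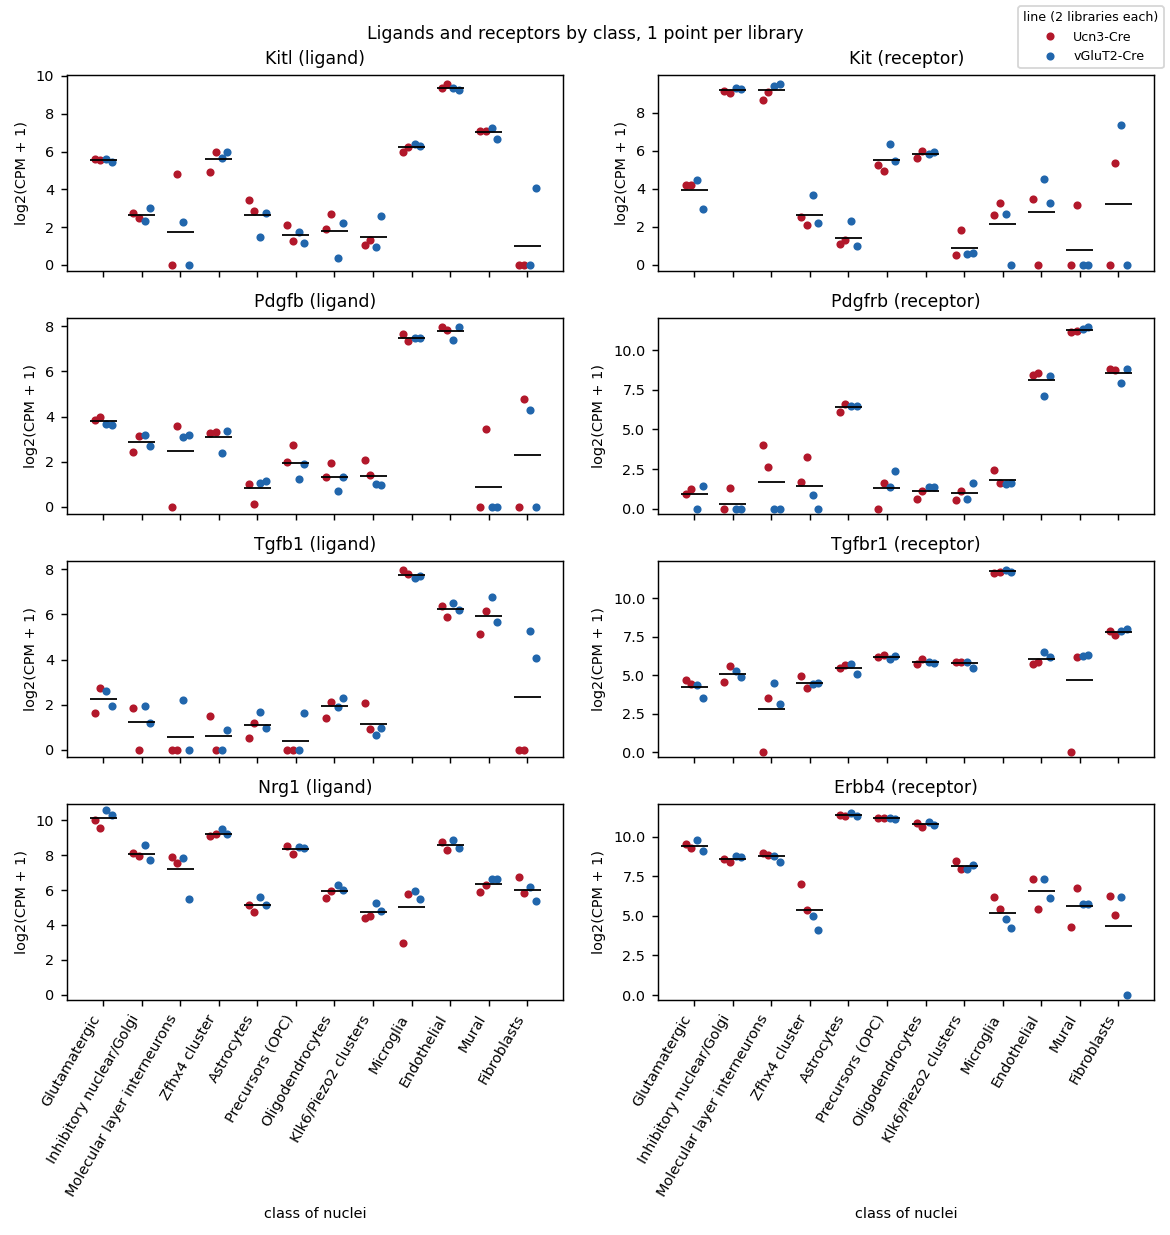
Log2(CPM + 1) of 4 ligands and their receptors (Kitl and Kit, Pdgfb and Pdgfrb, Tgfb1 and Tgfbr1, Nrg1 and Erbb4) in each class, with 1 point per library, Ucn3-Cre beside vGluT2-Cre, and a bar at the mean of the log2 values. Kitl peaks in endothelial nuclei (609 to 773 CPM), Kit in molecular layer interneurons and inhibitory neurons (409 to 735 CPM), and Tgfbr1 in microglia (3271 to 3722 CPM).

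Among PDGF ligands, Pdgfd and Pdgfb were highest in endothelial nuclei. Pdgfd, a ligand of the beta receptor, had 647 and 710 CPM in endothelial nuclei of the Ucn3-Cre libraries and 543 and 639 CPM in those of the vGluT2-Cre libraries. Astrocytes followed with 502 and 447 CPM in the Ucn3-Cre and 461 and 549 CPM in the vGluT2-Cre libraries, so that the 2 classes overlapped by 1 library pair at 543 and 549 CPM. Both were higher than the other classes, by log2 fold changes of 6.70 ± 0.16 in endothelial cells and 6.43 ± 0.14 in astrocytes (edgeR adjusted p = 4.49e-41 and 3.27e-44), with precursors next at 40.7 CPM. Pdgfb, the ligand that endothelial cells release towards pericytes, averaged 225 ± 40.0 CPM in endothelial nuclei and 180 ± 17.6 CPM in microglia, and 12.9 CPM in glutamatergic neurons, the next class. Mural cells, which hold its receptor, had 2.47 CPM. Pdgfc reached 108 and 86.7 CPM in the Zfhx4 cluster of the Ucn3-Cre libraries and 97.7 and 96.4 CPM in that of the vGluT2-Cre libraries (log2 fold change 2.55 ± 0.17, edgeR adjusted p = 2.51e-20), above glutamatergic neurons at 68.9 ± 5.60 CPM. Pdgfa, the ligand of the alpha receptor, was spread widely, with 69.8 and 31.0 CPM in endothelial nuclei of the Ucn3-Cre libraries and 94.8 and 62.4 CPM in those of the vGluT2-Cre libraries. Its endothelial log2 fold change of 1.00 ± 0.18 (edgeR adjusted p = 2.43e-06) turned to -0.25 with finer clusters. The unnamed Klk6 and Piezo2 clusters held more Pdgfa than any tested class, at 107 ± 15.3 CPM.

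The PDGF receptors marked 2 different classes. Pdgfra, the alpha receptor (chromosome 5, 75152292 to 75198215, plus strand), had 1844 and 1760 CPM in oligodendrocyte precursors of the Ucn3-Cre libraries and 1810 and 1621 CPM in those of the vGluT2-Cre libraries. Endothelial cells were next among tested classes at 32.6 CPM, and fibroblasts reached 2037 ± 274 CPM. The precursor log2 fold change was 9.36 ± 0.11 (edgeR adjusted p = 2.61e-59, higher in 4 of 4 libraries). Pdgfrb, the beta receptor, had 2241 and 2350 CPM in mural nuclei of the Ucn3-Cre libraries and 2532 and 2839 CPM in those of the vGluT2-Cre libraries (log2 fold change 8.70 ± 0.17, edgeR adjusted p = 4.72e-46). Endothelial nuclei, where mural markers also stood at 6527 to 8521 CPM, had 342 and 378 CPM in the Ucn3-Cre libraries and 134 and 328 CPM in the vGluT2-Cre libraries. The part of mural RNA in that endothelial value was not tested. Astrocytes had a lower level of Pdgfrb, 85.6 ± 12.6 CPM.

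In the TGF-beta family, both kinase receptors were highest in microglia. Tgfbr1, the type 1 receptor (chromosome 4, 47353222 to 47414931, plus strand), had 3271 and 3388 CPM in microglia of the Ucn3-Cre libraries and 3722 and 3440 CPM in those of the vGluT2-Cre libraries. That was 47.0 times the mean of the next tested class, precursors at 73.5 CPM, and fibroblasts had 230 CPM (log2 fold change 6.32 ± 0.09, edgeR adjusted p = 1.16e-53). Tgfbr2, the type 2 receptor, had 639 and 562 CPM in microglia of the Ucn3-Cre libraries and 515 and 660 CPM in those of the vGluT2-Cre libraries (log2 fold change 6.68 ± 0.14, edgeR adjusted p = 2.30e-44). Endothelial cells also held Tgfbr2, at 289 ± 34.5 CPM, below all microglial values, and mural cells 110 CPM. Tgfbr3, the co-receptor betaglycan, was highest among tested classes in endothelial nuclei, with 179 and 265 CPM in the Ucn3-Cre libraries and 237 and 214 CPM in the vGluT2-Cre libraries, against 127 CPM in molecular layer interneurons (log2 fold change 2.47 ± 0.12, edgeR adjusted p = 3.33e-26). Fibroblasts reached 896 CPM.

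Each TGF-beta ligand had another leading class. Tgfb1 had 251 and 221 CPM in microglia of the Ucn3-Cre libraries and 192 and 204 CPM in those of the vGluT2-Cre libraries, above endothelial cells at 75.4 ± 13.2 CPM (log2 fold change 5.66 ± 0.19, edgeR adjusted p = 4.26e-35). Microglia were thus highest for this ligand and for both kinase receptors. Tgfb2 had 110 and 255 CPM in endothelial nuclei of the Ucn3-Cre libraries and 140 and 162 CPM in those of the vGluT2-Cre libraries, against 54.1 ± 2.26 CPM in astrocytes (log2 fold change 3.99 ± 0.16, edgeR adjusted p = 2.10e-30). Tgfb3 had 63.3 and 45.7 CPM in oligodendrocytes of the Ucn3-Cre libraries and 40.3 and 42.2 CPM in those of the vGluT2-Cre libraries (log2 fold change 2.64 ± 0.16, edgeR adjusted p = 3.17e-22), and the Klk6 and Piezo2 clusters had 25.8 CPM.

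The BMP ligands were split between mural cells and inhibitory neurons. Bmp5 had 446 and 270 CPM in mural nuclei of the Ucn3-Cre libraries and 259 and 367 CPM in those of the vGluT2-Cre libraries, 13.1 times the endothelial mean (log2 fold change 6.89 ± 0.34, edgeR adjusted p = 1.14e-25). Bmp4 had 68.9 and 70.0 CPM in mural nuclei of the Ucn3-Cre libraries and 138 and 119 CPM in those of the vGluT2-Cre libraries, against 18.3 ± 6.16 CPM in endothelial nuclei (log2 fold change 6.48 ± 0.56, edgeR adjusted p = 1.09e-14). Fibroblasts, the other mesenchymal group, had 151 CPM of each. Bmp6 was highest among tested classes in inhibitory neurons, with 122 and 182 CPM in the Ucn3-Cre libraries and 177 and 206 CPM in the vGluT2-Cre libraries (log2 fold change 4.06 ± 0.16, edgeR adjusted p = 1.67e-30). Molecular layer interneurons at 112 ± 23.9 CPM overlapped that range, astrocytes had 92.8 ± 10.4 CPM and glutamatergic neurons 15.4 CPM, while fibroblasts reached 1602 ± 657 CPM.

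Among tested classes, the BMP receptors led in astrocytes and endothelial cells. Bmpr1b, a type 1 receptor (chromosome 3, 141837136 to 142169425, minus strand), had 678 and 669 CPM in astrocytes of the Ucn3-Cre libraries and 849 and 609 CPM in those of the vGluT2-Cre libraries, 34.5 times the mean of endothelial nuclei at 20.3 CPM (log2 fold change 7.35 ± 0.11, edgeR adjusted p = 3.66e-53). Bmpr1a, the other type 1 receptor, was much more even, with 205 and 265 CPM in astrocytes of the Ucn3-Cre libraries and 232 and 239 CPM in those of the vGluT2-Cre libraries, against 190 CPM in mural cells and 255 CPM in fibroblasts (log2 fold change 1.58 ± 0.08, edgeR adjusted p = 9.64e-26). Bmpr2, the type 2 receptor, led in endothelial nuclei, with 550 and 716 CPM in the Ucn3-Cre libraries and 519 and 550 CPM in the vGluT2-Cre libraries, against 223 CPM in microglia (log2 fold change 2.09 ± 0.08, edgeR adjusted p = 1.78e-32). Bmpr1a and Bmpr2 were at 53.7 CPM or more in every tested class, whereas Bmpr1b was at 1.43 CPM in microglia and 1.46 CPM in oligodendrocytes.

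Secreted FGFs were mostly neuronal, apart from Fgf1. Fgf1, an FGF without a signal peptide that binds all FGF receptors, had 299 and 255 CPM in astrocytes of the Ucn3-Cre libraries and 217 and 304 CPM in those of the vGluT2-Cre libraries, with oligodendrocytes at 167 CPM and the Klk6 and Piezo2 clusters at 203 CPM (log2 fold change 2.11 ± 0.08, edgeR adjusted p = 3.31e-31). Fgf9 had 45.2 and 52.5 CPM in glutamatergic neurons of the Ucn3-Cre libraries and 40.8 and 77.1 CPM in those of the vGluT2-Cre libraries, and the same level of 51.6 ± 13.3 CPM in inhibitory neurons (log2 fold changes 1.84 ± 0.16 and 1.72 ± 0.20, edgeR adjusted p = 2.18e-15 and 8.13e-11). Fgf20 likewise stood at 16.2 and 18.1 CPM in glutamatergic neurons of the Ucn3-Cre libraries and at 23.6 and 9.55 CPM in those of the vGluT2-Cre libraries, overlapping inhibitory neurons at 16.2 ± 5.58 CPM (glutamatergic log2 fold change 1.17 ± 0.25, edgeR adjusted p = 5.90e-05). Fgf10 and Fgf5 stood at different levels in glutamatergic and inhibitory neurons. Fgf10, whose main receptor is a splice form of Fgfr2 (chromosome 13, 118669791 to 118792115, plus strand), had 74.1 and 61.7 CPM in glutamatergic neurons of the Ucn3-Cre libraries and 60.1 and 54.7 CPM in those of the vGluT2-Cre libraries, against 2.07 CPM in microglia, the next tested class, which is no more than the 2.11 CPM that 3 counts there are worth (log2 fold change 5.88 ± 0.24, edgeR adjusted p = 1.51e-29). Fgf5 averaged 61.2 ± 20.6 CPM in inhibitory neurons and 33.1 ± 12.7 CPM in molecular layer interneurons, and 4.05 CPM in glutamatergic neurons.

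The 3 FGF receptor kinases were highest in glia among tested classes. Fgfr3 (chromosome 5, 33721674 to 33737068, plus strand) had 389 and 424 CPM in astrocytes of the Ucn3-Cre libraries and 401 and 392 CPM in those of the vGluT2-Cre libraries, 12.6 times the endothelial mean of 31.8 CPM (log2 fold change 6.08 ± 0.11, edgeR adjusted p = 1.22e-49). Fgfr2 led in oligodendrocytes, with 1988 and 1845 CPM in the Ucn3-Cre libraries and 1733 and 1735 CPM in the vGluT2-Cre libraries, and astrocytes followed at 850 ± 183 CPM (edgeR adjusted p = 6.39e-33, higher than the other 9 classes in 4 of 4 libraries). Fgfr1 had 200 and 257 CPM in astrocytes of the Ucn3-Cre libraries and 210 and 196 CPM in those of the vGluT2-Cre libraries, against 138 CPM in mural cells and 549 CPM in fibroblasts (log2 fold change 2.69 ± 0.08, edgeR adjusted p = 7.11e-39). Fgfrl1, a receptor without a kinase domain, was low and alike in precursors (27.5 CPM) and astrocytes (26.9 CPM). The 4 intracellular family members, which bind sodium channels and not FGF receptors, were mostly neuronal. Fgf12 was equal in glutamatergic (1964 ± 42.0 CPM) and inhibitory neurons (1957 ± 79.1 CPM), Fgf14 was highest in the Zfhx4 cluster (6081 ± 522 CPM), and Fgf11 was equal in inhibitory neurons (24.9 CPM) and precursors (24.8 CPM). Fgf13 was highest in microglia, with 616 and 682 CPM in the Ucn3-Cre libraries and 1471 and 918 CPM in the vGluT2-Cre libraries.

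Of the VEGF ligands, Vegfa was highest in astrocytes and Vegfc in endothelial nuclei. Vegfa, the main endothelial growth factor, had 298 and 226 CPM in astrocytes of the Ucn3-Cre libraries and 473 and 226 CPM in those of the vGluT2-Cre libraries, and precursors overlapped them at 237 ± 36.0 CPM (log2 fold changes 2.92 ± 0.09 and 2.44 ± 0.14, edgeR adjusted p = 8.63e-37 and 2.83e-23). Vegfc, the ligand of FLT4, had 78.0 and 47.3 CPM in endothelial nuclei of the Ucn3-Cre libraries and 117 and 80.2 CPM in those of the vGluT2-Cre libraries, against 15.6 CPM in precursors (log2 fold change 4.13 ± 0.24, edgeR adjusted p = 2.98e-23). With finer clusters, Vegfc stood at 48.4 CPM in the endothelial group and at 131 CPM in a separate group led by Acta2 and Tagln, and with doublets kept its mural over endothelial log2 fold change turned to 0.24, in place of -4.73. Vegfb, a ligand of FLT1, was nearly flat, with 45.8 and 52.9 CPM in astrocytes of the Ucn3-Cre libraries and 53.4 and 52.6 CPM in those of the vGluT2-Cre libraries, against 50.8 CPM in inhibitory neurons (astrocyte log2 fold change 0.60 ± 0.09, edgeR adjusted p = 4.96e-08). The VEGF receptors fall outside the symbol rule but were read from the list of partner genes: Flt1 averaged 4439 CPM in endothelial and 264 CPM in mural nuclei, Kdr 257 CPM and Flt4 53.8 CPM in endothelial nuclei. Kdr was also called higher in microglia and precursors, and Flt4 in the Zfhx4 cluster.

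Neuregulin RNA was highest in neurons, and the RNA of the ErbB receptors in glia. Nrg1 had 1056 and 763 CPM in glutamatergic neurons of the Ucn3-Cre libraries and 1521 and 1253 CPM in those of the vGluT2-Cre libraries, above the Zfhx4 cluster at 608 ± 77.6 CPM and endothelial cells at 388 ± 72.7 CPM (log2 fold change 3.00 ± 0.10, edgeR adjusted p = 1.42e-34). Nrg3 had 3971 and 3611 CPM in the Zfhx4 cluster of the Ucn3-Cre libraries and 4841 and 3829 CPM in that of the vGluT2-Cre libraries, overlapping glutamatergic neurons at 3439 ± 542 CPM (log2 fold changes 5.05 ± 0.14 and 4.83 ± 0.14, edgeR adjusted p = 2.30e-38 and 3.01e-37). Nrg2 had 541 and 394 CPM in the Zfhx4 cluster of the Ucn3-Cre libraries and 371 and 457 CPM in that of the vGluT2-Cre libraries, and molecular layer interneurons overlapped it at 390 ± 60.6 CPM (log2 fold change 2.62 ± 0.10, edgeR adjusted p = 2.77e-31). Precursors also held Nrg3, at 1820 CPM, and Nrg1, at 333 CPM. Nrg4 was equal in glutamatergic neurons (54.2 ± 17.1 CPM) and inhibitory neurons (53.7 ± 24.2 CPM).

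Erbb4, the main neuregulin receptor in brain (chromosome 1, 68032186 to 69108059, minus strand), had 2652 and 2499 CPM in astrocytes of the Ucn3-Cre libraries and 2901 and 2529 CPM in those of the vGluT2-Cre libraries. Precursors had 2318 ± 51.5 CPM, below every astrocyte value, and oligodendrocytes 1751 ± 164 CPM. Each of the 3 was higher than the mean of the other 9 classes (log2 fold changes 3.57 ± 0.12, 3.27 ± 0.13 and 2.94 ± 0.13, edgeR adjusted p = 2.01e-34, 1.03e-30 and 3.24e-29), and glutamatergic neurons had 694 ± 137 CPM. Erbb3, which binds neuregulin but has little kinase activity of its own, had 182 and 175 CPM in oligodendrocytes of the Ucn3-Cre libraries and 180 and 198 CPM in those of the vGluT2-Cre libraries, against 91.8 ± 12.8 CPM in precursors (log2 fold change 5.17 ± 0.11, edgeR adjusted p = 3.45e-45). Egfr, the receptor of EGF and TGF-alpha (chromosome 11, 16752203 to 16918158, plus strand), had 438 and 515 CPM in astrocytes of the Ucn3-Cre libraries and 462 and 455 CPM in those of the vGluT2-Cre libraries, above mural cells at 152 ± 60.9 CPM (log2 fold change 6.66 ± 0.10, edgeR adjusted p = 3.37e-53). The unnamed Klk6 and Piezo2 clusters had 287 CPM of Erbb4, below the 1751 CPM of the oligodendrocytes, but 158 ± 8.18 CPM of Erbb3.

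Of the neurotrophin ligands, Bdnf was called in the neuronal classes and Ntf3 was near the floor of detection. Bdnf, the ligand of TrkB, had 0 and 21.8 CPM in molecular layer interneurons of the Ucn3-Cre libraries and 37.1 and 23.2 CPM in those of the vGluT2-Cre libraries, and overlapped inhibitory neurons (17.6 ± 4.25 CPM) and glutamatergic neurons (13.8 ± 4.81 CPM). The interneuron log2 fold change of 2.69 ± 0.59 (edgeR adjusted p = 0.000287, higher in 3 of 4 libraries) lost its call without vGluT2-Cre 1 (adjusted p = 0.0549). Ntf3, the ligand of TrkC, summed to 52.6 counts over all nuclei kept, had 13.3 and 1.65 CPM in endothelial nuclei of the Ucn3-Cre libraries and 4.17 and 1.04 CPM in those of the vGluT2-Cre libraries, and was not tested. Ntrk2 (TrkB) had 1102 and 1001 CPM in astrocytes of the Ucn3-Cre libraries and 900 and 1081 CPM in those of the vGluT2-Cre libraries, with molecular layer interneurons at 642 ± 135 CPM and precursors at 516 CPM (log2 fold change 2.96 ± 0.10, edgeR adjusted p = 5.26e-34). Astrocytes are known for a truncated TrkB without the kinase, which these counts do not separate. Ntrk3 (TrkC) had 729 and 755 CPM in precursors of the Ucn3-Cre libraries and 752 and 776 CPM in those of the vGluT2-Cre libraries, against 450 ± 43.7 CPM in astrocytes, 1.82 CPM in oligodendrocytes and 1170 CPM in fibroblasts (log2 fold change 3.58 ± 0.14, edgeR adjusted p = 2.22e-31). Gfra1, the co-receptor of GDNF, had 313 and 373 CPM in precursors of the Ucn3-Cre libraries and 279 and 350 CPM in those of the vGluT2-Cre libraries, against 84.7 ± 15.1 CPM in oligodendrocytes and 1.91 CPM in the Klk6 and Piezo2 clusters (log2 fold change 5.10 ± 0.14, edgeR adjusted p = 7.79e-39). Gfra2, the co-receptor of neurturin, had 102 and 85.6 CPM in inhibitory neurons of the Ucn3-Cre libraries and 88.5 and 112 CPM in those of the vGluT2-Cre libraries, against 62.1 CPM in molecular layer interneurons (log2 fold change 3.29 ± 0.19, edgeR adjusted p = 1.33e-22). Ret, the kinase that both co-receptors use, averaged 27.1 CPM in molecular layer interneurons and 17.8 CPM in glutamatergic neurons. It was called higher in these classes and in endothelial cells.

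The 6 genes that only share a family's name were highest in microglia (Bmp2k, a kinase, at 796 ± 68.2 CPM, and Fgfr1op2 at 91.6 CPM), inhibitory neurons (Fgfr1op, a centrosome protein, at 127 CPM), oligodendrocytes (Bmp1, a procollagen protease, at 61.9 CPM), astrocytes (Pdgfrl, 112 to 154 CPM over the libraries) and mural cells (Tgfbrap1, 78.0 CPM, not called in any class). Fibroblasts exceeded these classes for Tgfbrap1 and for Pdgfrl, the second at 221 CPM.

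Counted over the 54 members tested, the share called higher is set beside that of all genes for each class. The difference between the 2 shares was not tested. Each class was set against the unweighted mean of the other 9, at an edgeR adjusted p below 0.05 over all 12106 genes tested. Glutamatergic neurons had 26 members higher (48.1%) and 16 lower, against 34.2% of all genes called higher. Astrocytes had 25 higher (46.3%) and 14 lower, against 34.0% of all genes. Endothelial cells had 23 higher (42.6%) and 14 lower, against 36.5% of all genes higher. The 23 fell to 13 with doublets kept and 15 with finer clusters, settings for which the share of all genes is not given here. The count was 22 (40.7%) in precursors against 23.1% of all genes, 22 (40.7%) in inhibitory neurons against 28.2%, 15 (27.8%) in the Zfhx4 cluster against 29.8%, 14 (25.9%) in molecular layer interneurons against 14.5% and 13 (24.1%) in mural cells against 9.85%. The mural count became 24 with doublets kept, again without the share of all genes. Oligodendrocytes had 14 higher (25.9%) and 25 lower, against 31.8% of all genes higher, and microglia 10 higher (18.5%) and 27 lower, against 26.7%. The lower share of members was 29.6% in glutamatergic neurons, 25.9% in astrocytes, 25.9% in endothelial cells, 46.3% in oligodendrocytes and 50.0% in microglia. Of all 12106 genes, 3177, 2976, 2938, 3310 and 3311 were called lower in the same order. The median fitted log2 fold change of the members was -1.56 in microglia against -0.11 over all genes, and -1.03 in oligodendrocytes against 0.00. For 9 members at least 1 tested class was at 0 in all 4 libraries (Bmp4, Fgf10, Fgf11, Fgf5, Gfra2, Nrg4, Ntf3, Pdgfd and Tgfbr2), so their fitted fold changes depend on the prior count. In 25 values of a member in a class (of Bdnf, Bmp4, Fgf10, Fgf5, Gfra2, Nrg4, Pdgfd and Tgfbr2) the test was not usable and no lower call could be made, so the lower counts may be too small. Because classes were formed from other genes of the same nuclei, these tests measure the spread between libraries and not the certainty of the classes.

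Scaling and tool moved whole-class counts but not the direction of a called member. In oligodendrocytes the median of all genes was -0.14 with RLE size factors and -0.37 with DESeq2, in place of 0.00, and 43.7% and 37.3% of calls were higher, in place of 53.8%. In mural cells the median was -0.11 with RLE factors and 0.25 with DESeq2, in place of -0.24, and 55.6% and 63.4% of calls were higher, in place of 46.1%. In mural over endothelial cells it was -0.17 and 0.00, in place of -0.39, and 36.0% and 42.9% of calls were higher, in place of 25.3%. In precursors over oligodendrocytes it was 0.08 and 0.24, in place of -0.04. No called member changed sign under DESeq2 or with RLE size factors.

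Glutamatergic nuclear neurons and inhibitory nuclear or Golgi neurons differed in 23 of 54 members (edgeR), 12 higher and 11 lower in glutamatergic neurons. Of all genes, 12.1% and 10.3% were called higher and lower. The glutamatergic class included 44 nuclei with inhibitory markers and 33 with oligodendrocyte genes. The ligands Fgf10, Pdgfc, Kitl, Nrg1 and Pdgfa were on the glutamatergic side. Fgf10 averaged 62.6 ± 8.18 CPM in glutamatergic and 1.20 CPM in inhibitory neurons (log2 fold change 6.15 ± 0.47). Pdgfc averaged 68.9 CPM in glutamatergic and 2.34 CPM in inhibitory neurons (4.90 ± 0.37), and Kitl 45.6 ± 2.68 CPM in glutamatergic and 5.34 ± 1.30 CPM in inhibitory neurons. The 2 classes did not overlap for Kitl. Nrg1 averaged 1148 ± 320 CPM in glutamatergic and 279 CPM in inhibitory neurons (2.12 ± 0.17), and Pdgfa 44.4 CPM in glutamatergic and 10.7 CPM in inhibitory neurons (2.11 ± 0.27). The receptors Gfra1 (47.9 CPM in glutamatergic and 4.49 CPM in inhibitory neurons, 3.94 ± 0.39) and Ntrk3 (313 CPM in glutamatergic and 120 CPM in inhibitory neurons, 1.51 ± 0.21) were also higher in glutamatergic neurons. Kit was lower there, at 15.6 CPM in glutamatergic and 577 CPM in inhibitory neurons (log2 fold change -5.16 ± 0.17), as was Bmp6, at 15.4 CPM in glutamatergic and 172 CPM in inhibitory neurons (-3.43 ± 0.18). Fgf5 (-3.76 ± 0.29) and Gfra2 (-2.48 ± 0.21) were lower by levels given above. With the Zfhx4 cluster joined to inhibitory neurons, the call for Pdgfc was lost (log2 fold change 0.36, adjusted p = 0.0726). Pdgfd, Nrg3, Fgfr2, Fgfr1, Tgfbr1, Tgfbr3, Pdgfra, Vegfa and Vegfc also lost their calls under 1 or more other settings.

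**Figure D3:**
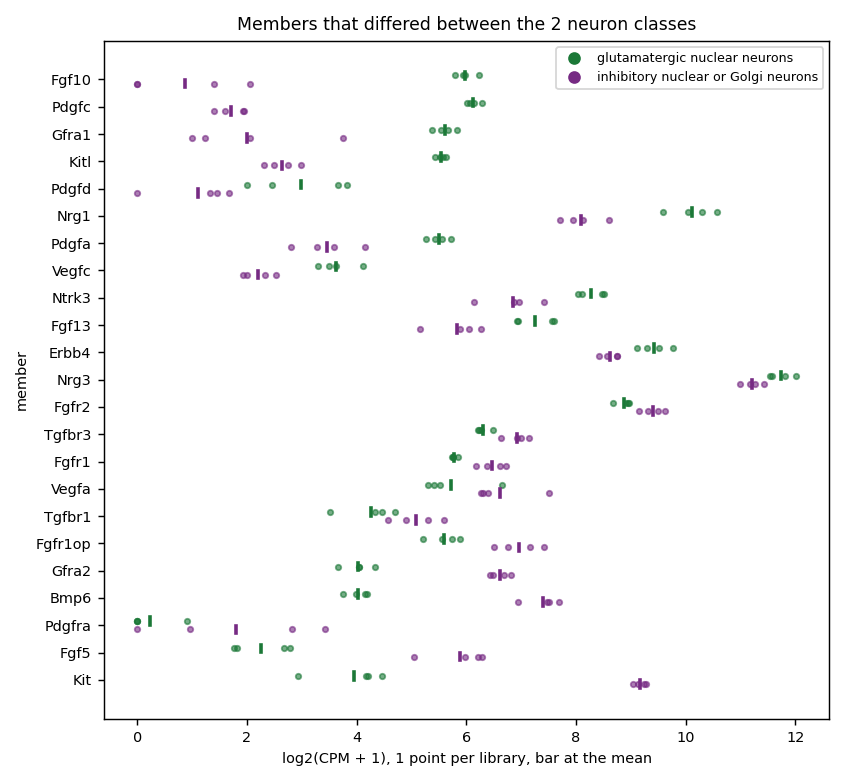
Log2(CPM + 1) of the 23 members called between glutamatergic and inhibitory neurons, with 1 point per library and class. Fgf10, Pdgfc and Kitl stand higher in glutamatergic neurons in all 4 libraries, and Kit, Bmp6 and Gfra2 lower.

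Precursors and mature oligodendrocytes differed in 35 members, 25 higher and 10 lower in precursors (46.3% and 18.5% of the members tested, against 26.0% and 23.1% of all genes). The receptors Pdgfra (log2 fold change 8.89 ± 0.15), Ntrk3 (8.51 ± 0.29) and Ntrk2 (4.82) were higher, together with the ligands Nrg3 (8.80 ± 0.34), Nrg2 (5.58), Pdgfd (4.01) and Vegfa (3.42 ± 0.16). Fgfr2 was lower in precursors, at 456 CPM against 1825 ± 120 CPM in oligodendrocytes (-2.13 ± 0.15), as were Erbb3 (-1.10 ± 0.13), Tgfb3 (-2.03) and Fgf1 (-1.46). The 10 lower calls became 6 with DESeq2 and 6 without vGluT2-Cre 2.

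Astrocytes differed from oligodendrocytes in 44 members, 32 higher and 12 lower in astrocytes (59.3% and 22.2% of the members tested, against 33.9% and 30.8% of all genes). Higher in astrocytes were the receptors Bmpr1b (log2 fold change 8.91 ± 0.19), Egfr (8.08 ± 0.16), Pdgfrb (5.93 ± 0.25), Fgfr3 (5.60 ± 0.14) and Fgfr1 (4.50), and the ligands Pdgfd (7.66), Bmp6 (4.27), Tgfb2 (4.23) and Vegfa (3.85 ± 0.13). Lower in astrocytes were Erbb3 (-5.87 ± 0.15), Kit (-4.89), Gfra1 (-4.88) and Tgfb3 (-2.88). The call for Erbb4 was lost with DESeq2 (adjusted p = 0.0526).

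Mural and endothelial cells, the 2 tested classes of the vessel wall, differed in 23 members, 9 higher and 14 lower in mural cells (16.7% and 25.9% of the members tested, against 5.72% and 16.9% of all genes). Mural cells were higher for Pdgfrb (log2 fold change 2.66 ± 0.14), Bmp5 (3.12 ± 0.33), Bmp4 (2.32 ± 0.46) and Egfr (2.90 ± 0.38). They were lower for the ligands Pdgfb (-6.33 ± 0.56), Pdgfd (-5.04 ± 0.41), Kitl (-2.67 ± 0.24) and Tgfb2 (-1.75) and for the receptors Bmpr2 (-1.91 ± 0.20) and Tgfbr2 (-1.81). The Bmp4 call was lost with no library block (adjusted p = 0.152). The 9 higher calls became 5 without Ucn3-Cre 2 and 16 with doublets kept, and the 14 lower calls became 7 with doublets kept. The endothelial class was not uniform: finer clusters set apart 296 nuclei led by Acta2 and Tagln and 83 led by Rgs5, Vtn and Abcc9. With doublets kept, Bmp6, Nrg3 and Pdgfra were called higher in mural cells (edgeR adjusted p = 1.96e-06, 5.58e-06 and 0.000133). Vegfc and Fgf14 also reversed there, without a call.

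Among the glutamatergic nuclei, 10 sub-clusters were formed without the growth factor genes, and 18 of the 30 members that could be tested differed between them (26.2% of 6279 genes were called; edgeR F test with library as a block). Kitl averaged 113 ± 31.3 CPM (82.9 to 156 over 4 libraries) in the sub-cluster led by Cpne4 and Spag16 and 93.8 ± 28.4 CPM (69.7 to 135) in the one led by Gm12682 and Gm43948, but 9.75 CPM in the Adamtsl5 sub-cluster and 6.89 CPM in the Zfp804b sub-cluster (adjusted p = 1.65e-10). Pdgfc was highest in the same sub-clusters, at 94.2 CPM and 164 ± 55.9 CPM, with 18 to 59 CPM elsewhere (adjusted p = 3.90e-10). Nrg1 showed the other order, with 407 ± 120 CPM in the Gm12682 sub-cluster, 647 CPM in the Cpne4 sub-cluster and 1470 ± 406 CPM in the Zfp804b sub-cluster (adjusted p = 3.35e-16). Gfra1 stood at 86.9 CPM in the Adamtsl5 sub-cluster and 11.9 CPM in the Zfp804b sub-cluster (adjusted p = 8.64e-09), and Erbb4 at 909 CPM and 378 CPM in the Gm12682 and Zfp804b sub-clusters (adjusted p = 1.21e-07). Fgf10 was present at 42 CPM or more in all but the sub-cluster led by Pax2, whose 44 nuclei carried inhibitory markers and are absent from the authors' vGluT2 table. Another 33 nuclei carried oligodendrocyte genes. Within nuclei of the authors' table, 10 of 25 members tested were called, against 1397 of 5999 genes. All 10 were among the 18: Erbb4, Fgf12, Fgf13, Fgf9, Gfra1, Kitl, Nrg1, Nrg4, Ntrk3 and Pdgfc. Without vGluT2-Cre 1 the count was 11 of 25 members tested, against 1035 of 4913 genes.

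**Figure D4:**
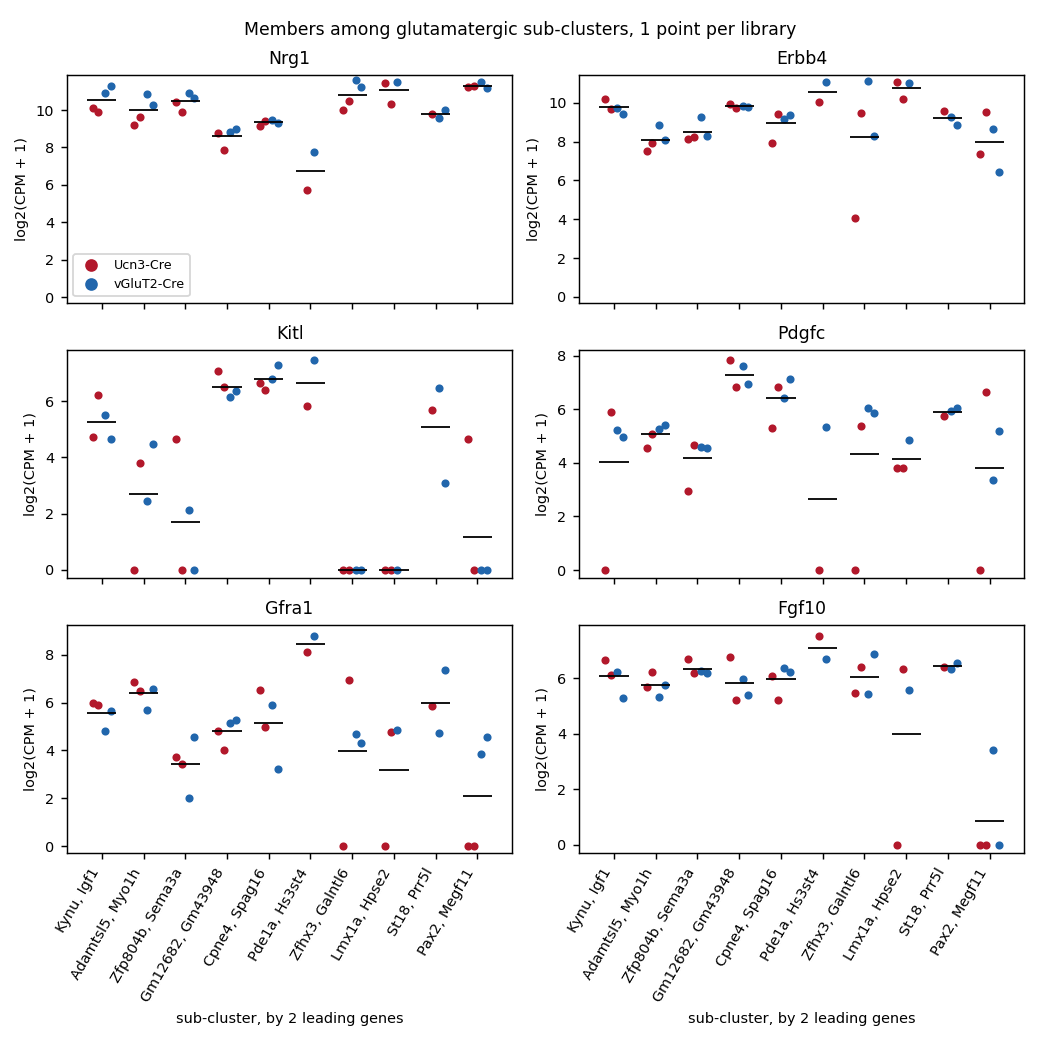
Log2(CPM + 1) of Nrg1, Erbb4, Kitl, Pdgfc, Gfra1 and Fgf10 in the 10 glutamatergic sub-clusters, named by their 2 leading genes, with 1 point per library. Kitl and Pdgfc are highest in the Cpne4 and Gm12682 sub-clusters, where Nrg1 averages 647 and 407 CPM.

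Partner genes of the same pathways, from lists drawn up beside the members, also differed between classes (edgeR, adjusted over all genes). Of 14 tested receptors outside the symbol rule, 10 were higher and 2 lower in endothelial cells (36.5% of all genes were higher there), among them Flt1, Kdr, Acvrl1 (394 CPM) and its co-receptor Eng (748 CPM), and 9 were higher and 1 lower in microglia (26.7% of all genes). Of 30 tested regulators and target genes, 21 were higher and 2 lower in astrocytes (34.0% of all genes higher), 17 higher and 3 lower in each of endothelial cells (36.5%) and precursors (23.1%), and 7 higher and 15 lower in glutamatergic neurons (34.2%). Etv4 and Etv5, transcription factors known as FGF targets, were highest in precursors (258 and 220 CPM) and next in astrocytes (112 and 94.7 CPM). Id1 and Id3, known BMP targets, averaged 546 and 549 CPM in endothelial nuclei. Of 8 tested ligands outside the rule, 5 were higher in each of astrocytes (34.0% of all genes), endothelial cells (36.5%) and precursors (23.1%), and Tgfa, a ligand of EGFR, was highest in precursors (190 CPM) and microglia (139 CPM).

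Between the lines, none of the 55 members was called in all nuclei pooled (edgeR, Ucn3-Cre over vGluT2-Cre; 0.0% of 13795 genes were called, 486 genes and 0 members had an unadjusted p below 0.05, and DESeq2 called 220 genes and 0 members). The lowest unadjusted p-values belonged to Tgfbrap1, with 36.8 and 37.3 CPM in the Ucn3-Cre and 50.2 and 42.5 CPM in the vGluT2-Cre libraries (log2 fold change -0.30 ± 0.11), Fgfr1 with 79.9 and 90.3 against 67.1 and 71.6 CPM (0.31 ± 0.12), and Fgf13 with 54.0 and 54.9 against 92.7 and 62.8 CPM (-0.49 ± 0.21). The 2 lines did not overlap for these 3 genes, which were picked for their low unadjusted p. The share of all genes without overlap was not counted, and each edgeR adjusted p was 1.0. A difference in all nuclei can come from fewer cells of a type or from less RNA per cell, which the pooled values alone do not tell apart.

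**Figure D5:**
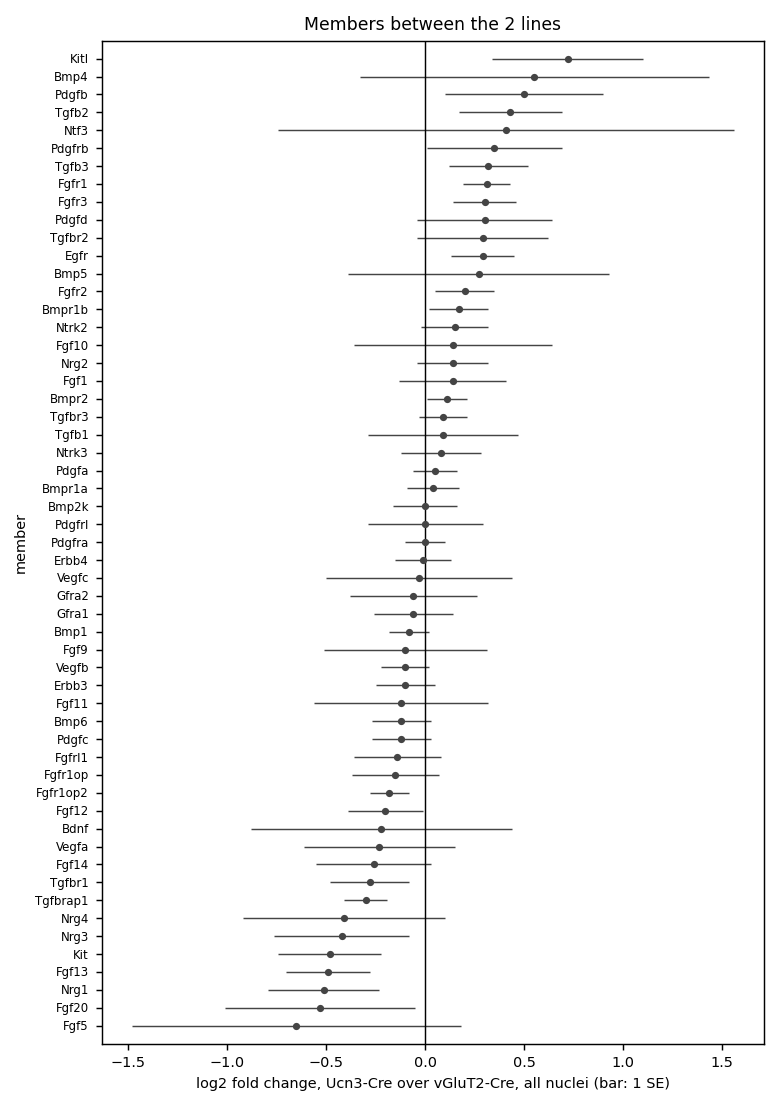
Log2 fold change (± 1 SE) of each of the 55 members in all nuclei, Ucn3-Cre over vGluT2-Cre, from 2 libraries a line. The estimates run from -0.65 (Fgf5) to 0.72 (Kitl), and none passed the threshold.

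Within the classes no member was called between the lines either. The share of all genes called was 0.0% in astrocytes, endothelial cells, glutamatergic neurons, inhibitory neurons, mural cells, oligodendrocytes and the Zfhx4 cluster, 0.126% in microglia, 0.0484% in precursors and 0.0272% in molecular layer interneurons. Members with an unadjusted edgeR p below 0.05 numbered 1 of 46 in astrocytes, 2 of 42 in endothelial cells and 1 of 41 in glutamatergic neurons. They numbered 1 of 30 in inhibitory neurons, 2 of 20 in microglia and 2 of 15 in molecular layer interneurons. Oligodendrocytes had 1 of 40, the Zfhx4 cluster 1 of 33, and mural cells and precursors 0. Of all genes, the same threshold gave 358 of 11982 in astrocytes, 174 of 9354 in endothelial cells and 292 of 11072 in glutamatergic neurons. It gave 249 of 8995 in inhibitory neurons, 225 of 7141 in microglia and 213 of 3671 in molecular layer interneurons. For oligodendrocytes it was 315 of 11315, for the Zfhx4 cluster 265 of 10048, for mural cells 65 of 1814 and for precursors 244 of 8272. In glutamatergic neurons Nrg1 was the lowest, with 1056 and 763 CPM in the Ucn3-Cre and 1521 and 1253 CPM in the vGluT2-Cre libraries (log2 fold change -0.56 ± 0.20). Endothelial Nrg3 had 50.8 and 34.8 CPM in the Ucn3-Cre and 277 and 136 CPM in the vGluT2-Cre libraries (-2.12 ± 0.40). Microglial Fgf13 had 616 and 682 CPM in the Ucn3-Cre and 1471 and 918 CPM in the vGluT2-Cre libraries (-0.89 ± 0.25), and Fgf1 in inhibitory neurons 164 and 175 against 68.6 and 106 CPM (0.99 ± 0.28). The lines did not overlap for these 4 genes, but the genes were picked for a low unadjusted p. How many of all genes did not overlap was not counted, so nothing is read from it. Each edgeR adjusted p was 1.0. The 3 members of lowest unadjusted p were Nrg1, Fgf1 and Fgf11 in glutamatergic neurons, Nrg3, Fgf12 and Egfr in endothelial cells, Fgf1, Vegfa and Fgfr2 in inhibitory neurons, and Fgf13, Erbb4 and Fgfr1op2 in microglia. They were Fgf12, Fgf13 and Kit in molecular layer interneurons, Fgfr1op2, Fgfr2 and Fgf20 in astrocytes, Tgfbrap1, Fgfr3 and Nrg1 in oligodendrocytes, Kit, Fgf1 and Tgfbr3 in precursors, Erbb4, Fgf1 and Gfra1 in the Zfhx4 cluster, and Fgfr1, Fgfr2 and Bmpr2 in mural cells. Without the filter on low counts, Fgf13 was called in microglia, where 68 of 13741 genes were called. Nrg3 was called in endothelial nuclei in that setting, with 5 of 14387 genes. Leaving out 1 library, which left 1 library in a line, moved single members past the threshold along with other genes. These were Fgf13 and Fgf14 in microglia, Fgf1 in inhibitory neurons and Nrg1 in molecular layer interneurons.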

How the data were processed

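Single-nucleus libraries were made on the 10x platform. The authors aligned and counted reads with Cell Ranger 3.1.0 against mm10 and used Seurat 3.2, per the submitters' processing notes. The deposited tables hold estimated counts per gene and nucleus: 97.2% to 98.8% of the values above 0 lie just below a whole number, and they keep 92.8% to 95.7% of the counts rounded up, as after a subtraction of background whose tool is not given in the sources used here. Totals were 9096357 to 19125488 counts a library, and every nucleus had over 1000 counts. The authors' deposited table of 480 vGluT2 nuclei holds the same estimated counts.

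All 21494 nuclei passed a floor of 200 genes and a ceiling of 5% mitochondrial counts. Scrublet marked 42 (0.195%), which was taken as a failed call, so the 947 top-scored nuclei (0.8% per 1000 nuclei) were removed. Scanpy 1.11.5 clustered the rest (2000 variable genes, 30 components, 15 neighbours, Leiden resolution 1). Clusters were named from marker lists; the name of the Zfhx4 cluster, whose best 2 lists lay within 0.1, was decided after its scores were seen. Counts were summed per library and class (20 nuclei or more), rounded, filtered with filterByExpr, scaled with TMM and tested in edgeR 4.0.16 (R 4.3.3) with Benjamini-Hochberg adjustment over all genes, threshold 0.05, with library as a block between classes. DESeq2 1.42.0, RLE factors and the settings named below were alternatives. The edgeR step was checked on simulated data.

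The members and lists were chosen with earlier results of these data known. In full stand the 3 ligands and 3 receptors of each family with the largest counts, and 10 further genes; Pdgfb, Fgf10 and Fgf5 were described after their values were seen. Between the lines, the members of lowest unadjusted p are named. Positions are GRCm38. The sources used here do not say that a replicate number marks a shared animal or day, though the column names of the 2 replicate 2 libraries share a code whose meaning is not given. Libraries shared 3 to 8 barcodes a pair.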

Additional observations from a re-analysis of the deposited data

Results flagged for a closer look

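Among 55 members, each looked at in the class where it was highest, 3 had 1 library standing apart from the other 3, with a gap beyond Dixon's 95% critical value for 4 samples. Chance alone marks about 1 in 20 groups of 4. Bmpr2 in endothelial nuclei was at 716 CPM in Ucn3-Cre 2 and at 519 to 550 CPM in the others. Pdgfrl in astrocytes was at 154 CPM in vGluT2-Cre 2, against 112 to 114 CPM. Vegfb in astrocytes was at 45.8 CPM in Ucn3-Cre 1, the library extracted on an iodixanol gradient, against 52.6 to 53.4 CPM.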

How the results depend on the processing

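Of 391 recomputed counts of members called, 375 stayed within 1.5 times the reported one. With doublets kept, endothelial cells had 13 members higher (23 reported), mural cells 24 (13), and mural over endothelial cells 16 higher (9) and 7 lower (14); finer clusters gave 15 in endothelial cells. Precursors over oligodendrocytes had 6 lower (10) with DESeq2, and 6 to 10 with 1 library left out; mural over endothelial cells had 5 to 8 higher, and the sub-clusters 11 to 18, and 10 within the authors' vGluT2 nuclei. Between the lines, leaving out 1 library gave 0 to 1 calls in inhibitory neurons, microglia and molecular layer interneurons, and no filter on low counts gave 1 in microglia and 1 in endothelial cells.

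Of 4311 values for called members, 4089 kept direction and call, 202 lost the call and 20 reversed. With doublets kept, the endothelial log2 fold changes of Bmpr1b (-0.36), Pdgfra (-1.04), Pdgfa (-0.18), Fgfr1 (-0.15), Egfr (-0.71) and Bmp6 (-1.51) reversed, as did those of mural over endothelial cells for Pdgfra (3.47), Vegfc (0.24), Nrg3 (2.32), Fgf14 (0.55) and Bmp6 (3.04). With finer clusters, endothelial Bmpr1b (-0.77), Pdgfa (-0.25), Fgfr1 (-0.20) and Bmp6 (-1.51), and mural over endothelial Nrg3 (0.48) and Bmp6 (0.42), reversed. With the Klk6 and Piezo2 clusters joined to oligodendrocytes, Pdgfc in astrocytes over oligodendrocytes (0.13) and Bmp1 in precursors over oligodendrocytes (0.03) reversed, and with the Zfhx4 cluster joined to inhibitory neurons, Tgfbr3 in glutamatergic over inhibitory neurons (0.03). The cause was not tested. These joined clusters and the crossed numbers were chosen after seeing the data.

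The replicate block gave 0 members called between the lines in all nuclei and in each class, as did crossed numbers. Deviations of Ucn3-Cre 1 and vGluT2-Cre 1 from their line means correlated at 0.151, and those of Ucn3-Cre 1 and vGluT2-Cre 2 at -0.151. With 2 libraries a line, these values mirror each other by construction. The libraries themselves correlated at 0.898 to 0.928. Depth limits mural cells (183 nuclei) and molecular layer interneurons (244) most: 10 and 15 members could be tested between the lines there.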

Other observations

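With clusters at a finer resolution, an endothelial group of 438 nuclei and a group of 296 nuclei led by Acta2 and Tagln stood beside the 183 mural nuclei. The endothelial group joined a cluster of 355 nuclei and another of 83 nuclei led by the mural markers Rgs5, Vtn and Abcc9. That smaller cluster scored 4.99 on the endothelial list and 4.14 on its second list. Kitl averaged 870 CPM in the endothelial group, 296 CPM in the Acta2 group and 131 CPM in mural cells, and Pdgfb 264, 144 and 2.47 CPM in the same order. Pdgfa ran the other way between the first 2 groups, at 27.4 CPM in the endothelial and 129 CPM in the Acta2 group, and so did Nrg1, at 338 and 482 CPM. Bmp6 stood at 3.54 CPM in the endothelial group and at 101 CPM in the Acta2 group. These values have no test.

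The unnamed Klk6 and Piezo2 clusters differed from the oligodendrocytes in a few members, given as values with no test. They held 1.01 CPM of Kit against 56.8 CPM in oligodendrocytes, 11.4 against 62.3 CPM of Pdgfc, and 107 against 41.4 CPM of Pdgfa.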
